A study of Rattus norvegicus with 12 samples.

Results

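The m6A readers are proteins that bind transcripts carrying N6-methyladenosine, and 10 genes of this class were examined in the rat retina: Ythdf1, Ythdf2, Ythdf3, Ythdc1, Ythdc2, Igf2bp1, Igf2bp2, Igf2bp3, Hnrnpa2b1 and Fmr1. They were selected by gene name, and no measured value enters the rule that picks them, although they were chosen with earlier results of these data known. Each had 1 row among the 22714 genes of the expression table. For 8 of the 10 at least 1 m6A peak was listed, among 9329 genes with a peak in any list. The retinas came from male Sprague-Dawley rats aged 7 to 8 weeks. In the traumatic optic neuropathy (TON) group the optic nerve was clamped 2 mm behind the eye for 10 s at a force of 40 g, and the sham group had the same exposure of the nerve without the clamp. Tissue was taken 12 h later, each sample was a pool of 4 rats, and the 3 sham samples (sham 1, 2 and 3) and 3 TON samples (TON 4, 5 and 6) each gave an input RNA library and an m6A-immunoprecipitated library. Both groups had surgery, so no unoperated retina was compared.

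N6-methyladenosine is placed on messenger RNA in the nucleus by a methyltransferase complex built around METTL3 and METTL14, and FTO and ALKBH5 can remove it. Readers carry the mark on to a fate of the transcript. Proteins with a YTH domain hold the methylated base in an aromatic pocket, whereas the IGF2BP proteins, HNRNPA2B1 and FMRP (the product of Fmr1) bind RNA through KH or RRM domains and favour marked transcripts less directly. Most of these roles were worked out in human cell lines and mice, and they are given here as background.

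In all 6 input libraries Hnrnpa2b1 had the highest level of the readers and Igf2bp3 was listed at 0. Expression is given as FPKM, fragments per kilobase of transcript scaled to the mapped fragments of its library, so levels may be set side by side between genes. The mean over the 6 libraries was 253 FPKM for Hnrnpa2b1, 53.3 for Ythdc1, 47.6 for Ythdf3, 40.2 for Ythdf2, 39.8 for Fmr1, 29.7 for Ythdf1, 14.1 for Igf2bp2, 6.77 for Ythdc2 and 0.549 for Igf2bp1. Hnrnpa2b1 lay above 98.7% of the 15900 genes tested and Ythdc1 above 89.2%, while Igf2bp2 stood at 58.0% and Ythdc2 at 41.3%. From Ythdc1 through Ythdf3, Ythdf2 and Fmr1 to Ythdf1, the ranges of neighbours in this order overlapped. The steps from Hnrnpa2b1 to Ythdc1, from Ythdf1 to Igf2bp2, from Igf2bp2 to Ythdc2 and from Ythdc2 to Igf2bp1 showed no overlap of ranges. The ends of the run did differ, since Ythdc1 was above Ythdf1 in every library without overlap, and Ythdc1 was above Ythdf3 in 6 of 6 libraries.

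**Figure D1:**
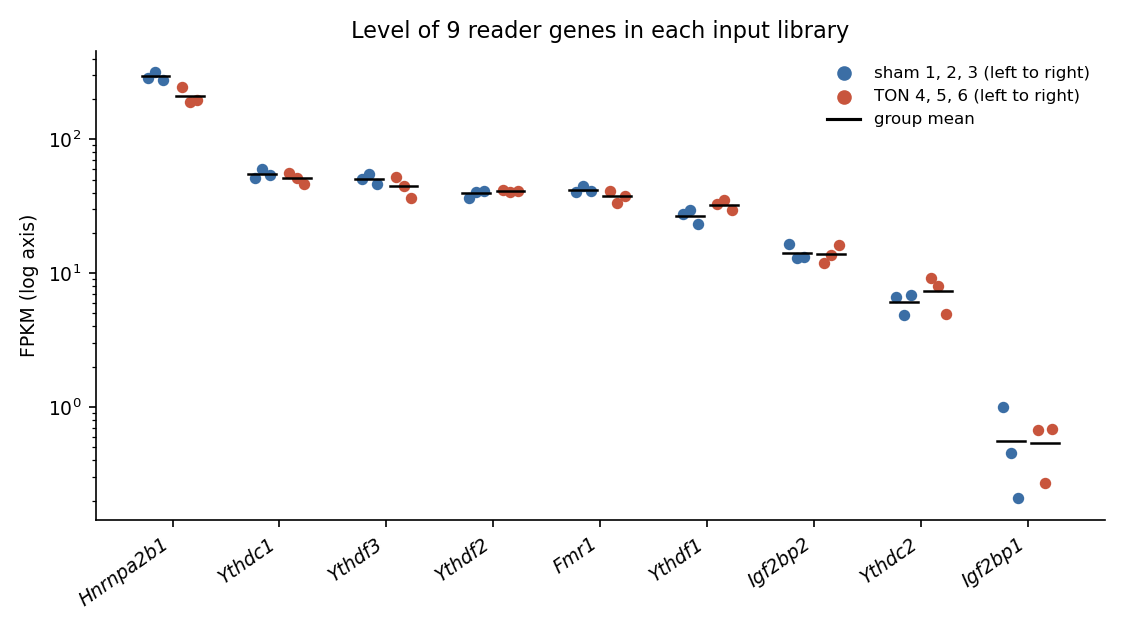
FPKM (log axis) of the 9 readers above 0 in each input library. Points are single libraries, sham in blue and TON in red, and bars are group means over 3 libraries; Hnrnpa2b1 is the only reader whose sham and TON points do not overlap, and Igf2bp1 stays near or below 1 FPKM.

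The input libraries held an estimated 3163338 to 4759865 fragments in genes, TON 4 being the shallowest and TON 5 the deepest. Summed rod markers were at 21261 to 22010 FPKM in sham and 22457 to 22698 FPKM in TON. Sham 1 carried 206 FPKM of 9 ocular surface epithelium markers, against 4.47 to 28.7 in the other 5 libraries, and TON 5 carried 58.3 FPKM of 5 skeletal muscle markers, against 2.90 to 15.3 elsewhere. Lens markers were present in every library at 1279 to 3935 FPKM. Summed bipolar cell markers were 762 to 807 FPKM in sham and 828 to 890.4 FPKM in TON, summed amacrine markers 401 to 416 and 432 to 489 FPKM, and summed microglial markers were 18.1 to 23.2 and 14.0 to 17.5 FPKM. Other cell types overlapped between the groups. Summed cone markers were 219 to 273 and 208 to 312 FPKM. Muller glia markers were 1312 to 1508 and 1379 to 1598 FPKM, and ganglion cell markers 441 to 532 and 467 to 555 FPKM. Markers of pigment epithelium, endothelium and mural cells overlapped too. The part of these tissue differences in the reader values was not tested, and in whole retina fewer cells of a type and less RNA per cell cannot be told apart.

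No reader was called as different between TON and sham at 12 h, which does not show that their levels were equal. With limma on log2(FPKM + 1) and Benjamini-Hochberg adjustment over 15900 genes, 0 of 9 readers were called at adjusted p under 0.05, where 7 genes in all (0.044%) were called. At unadjusted p under 0.05 the count was 1 of 9, against 10.4% of all genes. The lowest library of 1 group lay above the highest library of the other for 0 readers with TON higher (10.8% of all genes) and for 1 reader with TON lower (5.33% of all genes). The median log2 difference of the readers was -0.030, beside 0.058 over all genes tested. Of the 9 differences, 4 were positive and 5 negative. With 3 libraries against 3, an exact permutation test of a single gene cannot give a p under 0.1.

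HNRNPA2B1 is an abundant nuclear protein of the spliceosome-associated hnRNP family that also promotes the processing of primary microRNAs, and in neurons it takes part in moving messages along the processes of the cell. Hnrnpa2b1 measured 288, 318 and 278 FPKM in sham 1, 2 and 3 and 247, 190.1 and 197 FPKM in TON 4, 5 and 6. Every TON library lay below every sham library, with TON 4 the nearest to sham. The group means were 295 ± 20.9 (SD, n = 3) and 211 ± 31.1 FPKM, a ratio of 0.717, and the log2 difference was -0.49 (SE 0.12, 95% interval -0.77 to -0.20). The unadjusted p of the limma fit was 0.00419 and the adjusted p 0.335, so Hnrnpa2b1 was not called among all genes. Without sham 1 and TON 5, the libraries with the most epithelial and muscle RNA, the log2 difference was -0.43 (limma adjusted p 0.715). That fit was added after seeing the data. The remaining libraries still held markers of these tissues, and the part of tissue makeup in the Hnrnpa2b1 difference was not tested. The values rest on 1100 to 2278 fragments per library. Relatives of the hnRNP A family have processed copies in rodent genomes, and the sources used here do not say how reads shared between copies were counted, which makes this level uncertain.

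The 3 YTHDF proteins are cytoplasmic and closely alike in sequence. YTHDF1 was described as raising the translation of marked transcripts, YTHDF2 as recruiting the CCR4-NOT deadenylase so that they decay, and YTHDF3 as working with both. Ythdf1 measured 27.6, 29.9 and 23.3 FPKM in sham 1, 2 and 3 and 32.7, 35.1 and 29.7 FPKM in TON 4, 5 and 6. It was higher in TON in 8 of the 9 sham and TON pairs, the exception being TON 6 against sham 2. The means were 26.9 ± 3.32 and 32.5 ± 2.68 FPKM (SD, n = 3), with a log2 difference of 0.26 (SE 0.13, 95% interval -0.031 to 0.56) and a limma adjusted p of 0.531.

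Ythdf2 was the steadiest of the readers. It measured 36.5, 40.7 and 41.1 FPKM in sham and 41.6, 40.2 and 41.2 FPKM in TON, a coefficient of variation of 4.64% over the 6 libraries. The groups overlapped, and the log2 difference of 0.056 had a 95% interval of -0.16 to 0.27 (limma adjusted p 0.846). Ythdf3 measured 50.6, 55.3 and 46.3 FPKM in sham and 52.4, 44.9 and 36.3 FPKM in TON. TON 6 was its lowest library and TON 4 lay within the sham range. Its log2 difference was -0.20 (SE 0.14, 95% interval -0.53 to 0.14, limma adjusted p 0.682).

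The 3 YTHDF genes were also set side by side as shares of their sum. Their summed level was 117 ± 7.80 FPKM in sham and 118 ± 9.92 FPKM in TON (SD, n = 3). Ythdf1 made up 24.1%, 23.7% and 21.1% of that sum in sham 1, 2 and 3 and 25.8%, 29.2% and 27.7% in TON 4, 5 and 6. Ythdf3 made up 44.1%, 43.9% and 41.8% in sham and 41.4%, 37.3% and 33.9% in TON. Neither share overlapped between the groups, although for Ythdf3 the gap between sham 3 and TON 4 was narrow. The share of Ythdf2 was 33.8 ± 2.93% and 34.9 ± 3.06% (SD, n = 3), and its groups overlapped. Shares of the same sum are tied, so a higher share of Ythdf1 lowers the rest, and the separations of Ythdf1 and Ythdf3 are not independent. By their own FPKM, Ythdf1 and Ythdf3 each overlapped between the groups. These shares were computed after the levels had been seen and were given no test, and how often shares in other sets of genes stand apart was not examined.

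**Figure D2:**
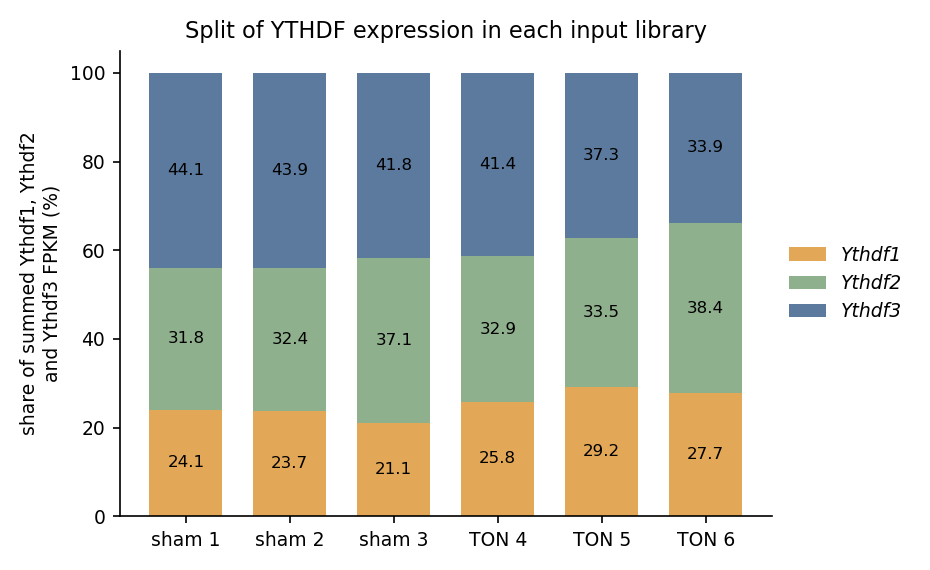
Share (%) of each YTHDF gene in the summed FPKM of Ythdf1, Ythdf2 and Ythdf3, for each input library. The Ythdf1 share is 21.1% to 24.1% in sham and 25.8% to 29.2% in TON, and the Ythdf3 share 41.8% to 44.1% and 33.9% to 41.4%.

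YTHDC1 is the nuclear YTH protein, which takes part in splicing and in the export of marked transcripts, and YTHDC2 is an RNA helicase with a YTH domain that is required for meiosis in mouse germ cells. Ythdc1 measured 51.5, 60.5 and 54.4 FPKM in sham 1, 2 and 3 and 56.1, 51.2 and 46.4 FPKM in TON 4, 5 and 6. The ranges overlapped, and the log2 difference was -0.11 (SE 0.11, 95% interval -0.36 to 0.14, limma adjusted p 0.743). Ythdc2 measured 6.69, 4.87 and 6.87 FPKM in sham and 9.24, 8.00 and 4.95 FPKM in TON. TON 4 and TON 5 lay above all sham libraries and TON 6 did not. Its log2 difference of 0.21 had a wide 95% interval of -0.40 to 0.82 (limma adjusted p 0.796), with 74 to 153 fragments per library.

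FMRP, lost in fragile X syndrome, is a neuronal protein that represses translation and binds many marked transcripts. Fmr1 measured 40.5, 44.8 and 41.1 FPKM in sham 1, 2 and 3 and 41.2, 33.6 and 37.8 FPKM in TON 4, 5 and 6. TON 4 lay within the sham range and the other TON libraries below it. The log2 difference was -0.17 (SE 0.11, 95% interval -0.42 to 0.086, limma adjusted p 0.642). The table gives its locus on chromosome 1 and, in another column, its chromosome as X, so the placing of this row is uncertain.

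The IGF2BP proteins stabilise marked transcripts and are known as fetal proteins that are mostly silent in adult tissues apart from IGF2BP2. Igf2bp2 was the member with a substantial level, at 16.5, 12.96 and 13.3 FPKM in sham 1, 2 and 3 and 12.0, 13.6 and 16.3 FPKM in TON 4, 5 and 6. The groups covered nearly the same range, and the log2 difference was -0.030 (SE 0.17, 95% interval -0.43 to 0.37, limma adjusted p 0.963). Igf2bp1 measured 1.01, 0.453 and 0.208 FPKM in sham and 0.671, 0.269 and 0.688 FPKM in TON. These stand for an estimated 10, 5 and 2 fragments in sham and 5, 3 and 6 in TON, and the exact 95% Poisson interval of the largest number, 4.80 to 18.4, overlaps that of the smallest, 0.242 to 7.22 (counting error only). Its 95% interval of the log2 difference was -0.59 to 0.61 (limma adjusted p 0.993), so no difference was detectable at this depth. Igf2bp3 was listed at 0 in each of the 6 libraries and was not tested. A zero here need not mean absence, since Tuba1b, a tubulin gene used by every cell, is also listed at 0 in all 6.

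**Figure D3:**
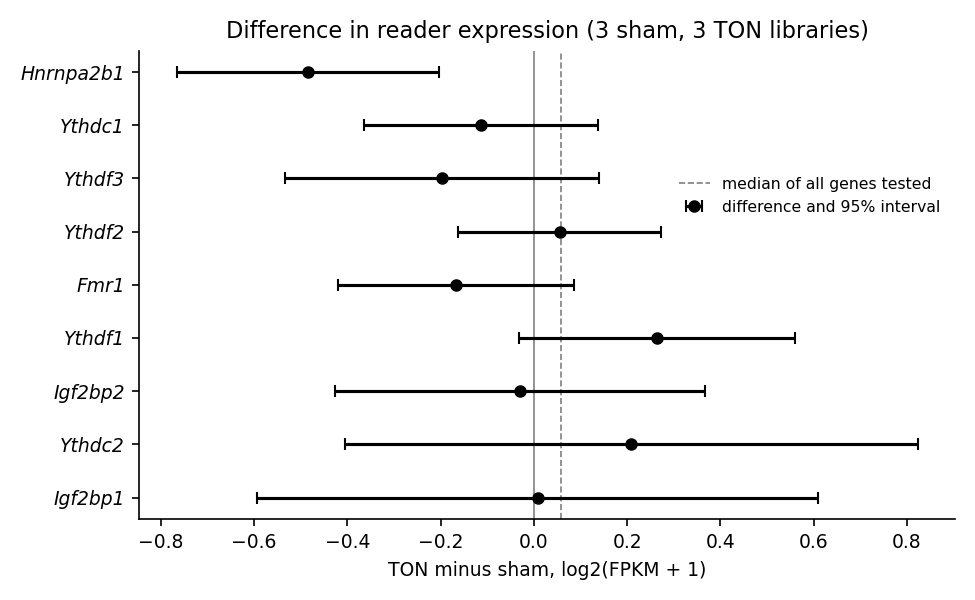
Difference between TON and sham on the log2(FPKM + 1) scale for each reader tested, with its 95% interval (limma, 3 libraries per group). The interval of Hnrnpa2b1, -0.77 to -0.20, is the only one that excludes 0, and the dashed line marks the median of all genes tested, 0.058.

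The genes that place and remove the mark gave no call either. By quantitative real-time PCR at the same time after injury, the paper reported Mettl3, Wtap, Fto and Alkbh5 as upregulated. Why the methods differed was not tested. Of 11 genes listed as writers, 10 were in the table and 0 were called. Their log2 difference was positive for 1 and negative for 9, with a median of -0.045, beside 0.058 over all genes tested. Wtap, which anchors the methyltransferase complex in nuclear speckles, had 58.5 ± 1.53 FPKM in sham and 58.4 ± 4.27 FPKM in TON, and Zc3h13, another subunit, 48.8 ± 2.30 and 46.8 ± 1.94 FPKM (SD, n = 3). Mettl3 had 26.7 ± 2.33 FPKM in sham and 26.7 ± 5.16 FPKM in TON. Of the erasers, Alkbh5 had 53.2 ± 5.29 and 56.4 ± 11.3 FPKM. Fto measured 35.7, 37.7 and 38.7 FPKM in sham and 41.5, 44.8 and 42.4 FPKM in TON. All TON libraries lay above all sham libraries for Fto, with a log2 difference of 0.19 and a limma adjusted p of 0.521. The same separation with TON higher was seen in 10.8% of all genes tested.

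Other proposed readers and the known partners of the readers showed the same absence of calls. Among 12 further proposed readers and relatives in the table, 8 differences were positive and 4 negative with a median of 0.040. Of the 12, 2 were higher in TON without overlap and 0 lower. They were G3bp1 (log2 difference 0.16, limma adjusted p 0.646) and Lrpprc (log2 difference 0.26, limma adjusted p 0.481). Among all genes tested, 10.8% were higher in TON without overlap and 5.33% lower. Prrc2a, a reader of oligodendrocyte precursors in mice, had 78.6 ± 6.26 and 88.0 ± 19.4 FPKM, and Rbmx, an hnRNP protein, 59.5 ± 3.76 and 61.0 ± 10.2 FPKM in sham and TON (SD, n = 3). Among 12 genes of the decay machinery that works with YTHDF2, 6 differences were positive and 6 negative. Cnot6, a deadenylase subunit, had 104 ± 4.46 and 95.03 ± 3.15 FPKM without overlap (log2 difference -0.13, limma adjusted p 0.607), and Cnot2, a scaffold subunit, 59.4 ± 9.49 and 53.2 ± 10.1 FPKM.

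All 4 tested partners of YTHDC1 and YTHDC2 had negative differences, with a median of -0.29 and 0 calls. The log2 differences were -0.37 for Rbm46, -0.36 for Srsf10, -0.22 for Safb and -0.011 for Nxf1, and only Rbm46 was without overlap. Among all genes tested, 5.33% were lower in TON without overlap. The export receptor gene Nxf1 had 59.0 ± 6.48 and 58.4 ± 5.38 FPKM, and Safb, which codes for a nuclear scaffold factor, 49.0 ± 6.59 and 41.7 ± 2.81 FPKM (SD, n = 3). Of the 4 partners of FMRP, 3 were positive and 1 negative. Cyfip2, a subunit of the WAVE actin regulator, had 107 ± 8.38 and 122 ± 24.4 FPKM, and Caprin1, a stress granule protein, 74.9 ± 3.64 and 65.0 ± 6.85 FPKM without overlap (log2 difference -0.21, limma adjusted p 0.548). Of the 7 partners of the IGF2BP proteins, 2 were positive and 5 negative. Hnrnpu, a nuclear scaffold protein and hnRNP, measured 255, 313 and 288 FPKM in sham and 227, 214 and 231 FPKM in TON, without overlap (log2 difference -0.34, limma adjusted p 0.378), and Pabpc1, the cytoplasmic poly(A)-binding protein, had 173 ± 9.11 and 161 ± 12.3 FPKM.

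Across the 6 input libraries some readers varied together. On log2(FPKM + 1), Hnrnpa2b1 and Fmr1 had a Pearson r of 0.90 (Spearman 0.77) and Ythdc1 and Ythdf3 an r of 0.90 (Spearman 0.94). After the group means were taken out the r values were 0.89 and 0.87. Ythdc1 and Igf2bp2 ran in opposite directions, at -0.75 (Spearman -0.77). Among 10198 genes that averaged 5 FPKM or more, the profile most like Hnrnpa2b1 was that of Thnsl1 (r = 0.998), the one most like Ythdc1 was Btbd1 (0.996), and the one most like Ythdf2 was Cpeb3 (0.997). The most alike gene was LOC102555249 for Ythdf3 (0.995), St7l for Fmr1 (0.993), Rab5b for Ythdf1 (0.991), Fnbp4 for Ythdc2 (0.989) and Lemd2 for Igf2bp2 (0.980). Each reader had 46 to 194 genes above an r of 0.9. These values describe 6 libraries that share depth and tissue makeup within each library, and with so many genes compared, high values of r arise easily.

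The reader transcripts themselves carried m6A peaks, and most of these lay in Ythdc1 and the YTHDF genes. A peak is a stretch where the immunoprecipitated library exceeded its own input. The 6 lists together held 97 peaks in reader genes, which merge into 27 regions when peaks sharing at least 1 base are joined. Ythdc1 had 46 of the 97 peaks, Ythdf2 and Ythdf3 13 each, Ythdf1 11, Igf2bp2 7, Ythdc2 4, Fmr1 2 and Hnrnpa2b1 1. Igf2bp1 and Igf2bp3 had none. The order of peak numbers did not follow the order of levels, since Hnrnpa2b1, with the highest FPKM, had a peak in 1 list only and Fmr1, at the level of Ythdf2, in 2 lists. In the 12867 genes that averaged 1 FPKM or more, 28.7% had a peak in all 6 lists and 33.0% in none. Ythdf1, Ythdf2, Ythdf3 and Ythdc1 belonged to the former.

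Peaks in reader genes numbered 13, 13 and 16 in sham 1, 2 and 3 and 20, 17 and 18 in TON 4, 5 and 6. Every TON list held more of them than every sham list, with means of 14.0 ± 1.73 and 18.3 ± 1.53 (SD, n = 3). The lists as a whole had 12822 to 13854 peaks in sham and 12424 to 14233 in TON, and these totals overlapped. The bases covered by all peaks did not overlap, at 5898868 to 6821131 in sham and 6828668 to 8884670 in TON. In reader genes the bases covered did overlap, at 7359, 7408 and 10249 in sham and 11861, 8103 and 10989 in TON. Readers took 0.105 ± 0.0130% of the peaks in sham and 0.138 ± 0.00779% in TON.

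**Figure D4:**
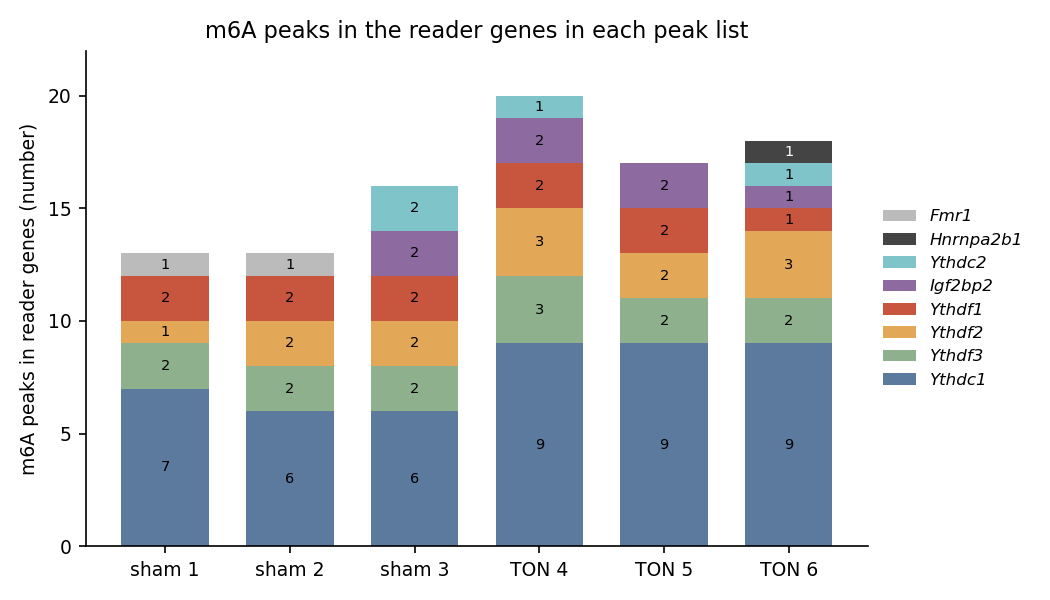
Number of m6A peaks in each reader gene in each of the 6 peak lists, stacked by gene. The totals are 13, 13 and 16 in sham and 20, 17 and 18 in TON, and Ythdc1 has 6 or 7 peaks in each sham list and 9 in each TON list.

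Ythdc1 accounted for most of that difference. It had 7, 6 and 6 peaks in sham 1, 2 and 3 and 9 in each of TON 4, 5 and 6, so the groups did not overlap (two-sided exact permutation p = 0.1, the smallest that 3 lists against 3 allow). Full separation of the groups depended on weak peaks. The score of a peak is minus 10 times log10 of the p of the peak caller. At a score of at least 100, Ythdc1 kept 7, 6 and 6 peaks in sham and 8, 7 and 9 in TON. The groups then overlapped, by a tie at 7 (exact permutation p = 0.2). Not all peaks found only in TON lists were weak, since chr14:22889328-22889429 scored 1731 in TON 5 and 2150 in TON 6. Among all 9329 genes with a peak, 2.98% had more peaks in every TON list than in any sham list and 3.54% had fewer, and among the readers these counts were 1 and 0. The peaks of Ythdc1 covered 2208, 2118 and 2118 bases of the sham lists, and 2376, 2393 and 2388 bases of TON 4, 5 and 6. The other readers overlapped between the groups. Ythdf1 had 2, 2 and 2 peaks in sham and 2, 2 and 1 in TON, Ythdf2 1, 2 and 2 against 3, 2 and 3, and Ythdf3 2, 2 and 2 against 3, 2 and 2. Igf2bp2 had 0, 0 and 2 peaks in sham and 2, 2 and 1 in TON, and Ythdc2 had 0, 0 and 2 against 1, 0 and 1.

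Of the 27 reader regions, 9 were held in all 6 lists, where 21.4% of the 24605 regions of all genes were. Gained regions, present in all 3 TON lists and no sham list, numbered 1 in the readers and 1.67% among all regions. Lost regions numbered 0 in the readers and 1.86% among all regions. Ythdc1 alone had 6 of the 9 shared regions. Among the 3319 genes with any region in all 6 lists, 71 (2.14%) had 6 or more and 68.5% had 1, the largest number being 15. Positions below are those of the files. For these rat samples no rat build is named in the sources used here, where the RNA-seq methods name a human reference genome, and the exon or UTR of each region was not looked up for that reason.

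Ythdc1 (ENSRNOG00000001996) lies on the minus strand at chr14:22869119-22899609. Its strongest region, chr14:22869119-22870094, ends at the 3′ edge of the gene and is 976 bases long. The fold enrichment of the immunoprecipitated library over input there was 26.8, 31.9 and 34.5 in sham 1, 2 and 3 and 45.9, 30.4 and 54.6 in TON 4, 5 and 6. TON 5 lay among the sham lists and the other TON lists above them. At the 5′ edge, chr14:22899267-22899609 had a fold enrichment of 11.5, 19.4 and 16.5 in sham and 33.5, 16.2 and 16.7 in TON, where TON 4 alone stood out.

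Inside the gene, the region with the clearest separation was chr14:22887777-22888209, 433 bases long and 11400 bases from the 5′ edge. Its fold enrichment was 20.3, 17.5 and 17.4 in sham and 33.6, 24.2 and 37.2 in TON, all TON lists above all sham lists. Divided by the median fold enrichment of each list it was 3.06, 2.45 and 2.50 in sham and 3.92, 3.36 and 3.86 in TON, again without overlap. It was the only one of the 9 shared reader regions to stay apart on that scale. At chr14:22872177-22872311 the fold enrichment was 13.8, 14.3 and 16.03 in sham and 24.4, 14.5 and 33.3 in TON, and TON 5 was again within the sham range. The shared regions chr14:22873873-22873936 and chr14:22877771-22877937 were weaker, at 6.14 to 7.81 and 7.39 to 8.07 in sham and 7.91 to 11.2 and 8.16 to 12.97 in TON. Their false discovery rates over the lists ran from 12.5% to 83.9% and from 7.43% to 64.1%.

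The 1 gained region among the readers was also in Ythdc1, at chr14:22875241-22875323, 83 bases long. Its fold enrichment was 5.41, 4.53 and 5.96 in TON 4, 5 and 6. It was a weak peak in each of its lists, with a score of 88.0 to 112, which put it above only 20.7% to 23.3% of the peaks of its list, and a false discovery rate of 48.0% to 67.7%. High rates were common, since the median false discovery rate of all peaks was 29.65%, 32.7% and 45.2% in TON 4, 5 and 6. A further 3 regions of Ythdc1 were found in some lists. The region at chr14:22878911-22878995 was in TON 4 and TON 6 and the one at chr14:22889328-22889429 in TON 5 and TON 6, where its score was 1731 to 2150. The region at chr14:22885181-22885270 was in sham 1, TON 4 and TON 5. No region of Ythdc1 was held by sham lists alone.

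The table places Ythdf1 (ENSRNOG00000027015) at chr3:180125834-180141343 and Ythdf2 (ENSRNOG00000010892) at chr5:154038417-154062397, both on the minus strand, and Ythdf3 (ENSRNOG00000010084) at chr2:120415579-120448585 on the plus strand. The 3 YTHDF genes each had 1 long internal region in all 6 lists, of 1521, 1510 and 1599 bases. In Ythdf1 it lay at chr3:180131236-180132756, with a fold enrichment of 6.88, 6.19 and 5.66 in sham 1, 2 and 3 and 12.4, 5.81 and 9.86 in TON 4, 5 and 6. In Ythdf2 it lay at chr5:154055173-154056682, with 12.1, 8.68 and 6.82 in sham and 19.2, 10.2 and 19.7 in TON. In Ythdf3 it lay at chr2:120434820-120436418, with 7.45, 6.87 and 8.87 in sham and 14.6, 8.94 and 16.3 in TON. In all 3 genes TON 4 and TON 6 were the highest lists and TON 5 was close to the sham lists, within their range for Ythdf1 and Ythdf2 and just above it for Ythdf3. A region held in all 6 lists could be weak in some of them. The Ythdf3 region had a score of 59.0 and a false discovery rate of 76.3% in sham 2. The Ythdf1 region had a false discovery rate of 100% in sham 3, where the median of all peaks was 93.0%.

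Their other regions were less regular. A region at the 5′ edge of Ythdf1, chr3:180141173-180141343, and one at the 5′ edge of Ythdf3, chr2:120415579-120415845, were each in every list except TON 6. The 3′ edge of Ythdf2 had a region, chr5:154037607-154038491, in sham 3 and all TON lists. Another region that carries the name of Ythdf2, chr5:154062930-154063041, was in sham 2, TON 4 and TON 6 and lies outside the extent the table gives for the gene. Near the 3′ end of Ythdf3, chr2:120446413-120447512 was listed in TON 4 and TON 6.

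The remaining readers had scattered peaks. Of these, Hnrnpa2b1 (ENSRNOG00000011175) is placed at chr4:145901254-145909847 and Igf2bp2 (ENSRNOG00000025946) at chr11:85681571-85711438. Igf2bp2 had 4 regions, of which the longest, chr11:85709905-85711768 at the 3′ end, was in sham 3, TON 4 and TON 6 at a fold enrichment of 4.40 to 6.67. Another, chr11:85557265-85557521 in TON 4 and TON 5, carries the name of Igf2bp2 and likewise lies outside the extent of its gene. Ythdc2 had a region at its 5′ edge, chr1:189110986-189111184, in sham 3, TON 4 and TON 6, and another in sham 3. Hnrnpa2b1 had 422 bases at its 3′ edge, chr4:145901254-145901675, in TON 6 only, with a fold enrichment of 6.18. Fmr1 had 1 peak in sham 1 and 1 in sham 2, at different places and with a fold enrichment of 4.33 and 4.86, and none in TON.

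**Figure D5:**
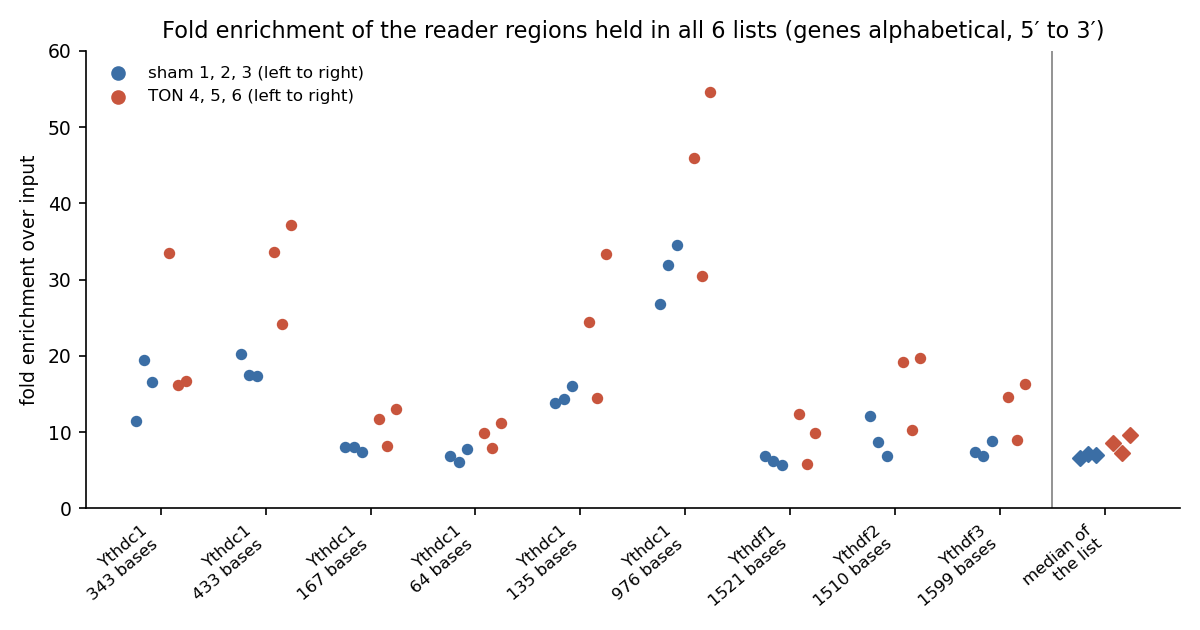
Fold enrichment over input of the 9 reader regions held in all 6 lists, with the median of each whole list at the right (diamonds). Regions are named by gene and length and run 5′ to 3′ within Ythdc1; TON 4 and TON 6 are the highest lists in most regions, as in the list medians of 8.56 and 9.64 against 6.63 to 7.21 in the other lists.

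The fold enrichment of the shared reader regions must be read beside the lists as a whole. All 9 had a higher mean in TON than in sham, with a median ratio of 1.497, and the median ratio over all 5261 regions held in all 6 lists was 1.32. The groups did not overlap with TON higher in 4 of the 9, against 25.4% of all such regions, and with TON lower in 0 of the 9, against 3.73%. The median fold enrichment of the whole list was 6.63, 7.16 and 6.96 in sham 1, 2 and 3 and 8.56, 7.21 and 9.64 in TON 4, 5 and 6. After division by that median, 1 of the 9 was without overlap and higher in TON, against 15.9% of all such regions, and 0 of the 9 lower, against 8.55%. The score of 3100 was reached by 348 to 639 peaks of each sham list and of TON 5 but by 1495 and 1204 in TON 4 and TON 6. TON 4 and TON 6 thus differed from the other lists over all genes, and the part of that in the reader values was not tested. Of the 97 reader peaks, 85 (87.6%) had exactly the same bounds as a peak in another list, as had 82.3% of all peaks, so bounds cannot be compared between lists as independent measurements.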

How the data were processed

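MeRIP-seq and RNA-seq were run on 12 libraries from the retinas of sham and TON rats. Per the labels and methods, reads were trimmed with cutadapt 1.9.3 and aligned with HISAT2 2.0.4, FPKM came from Cufflinks and Cuffdiff, and MACS called peaks in each sample against its input. For the rat genome build, the sources used here name none (the RNA-seq methods name a human one). The deposited table holds FPKM per gene, computed by the authors, and a signal that behaves as fragments scaled by 1 factor per library; 98.3% to 98.6% of its low values were whole multiples of that factor within 0.1, which gave the depth, and no count test was run. The deposited peak lists give every peak a length, a score, a ratio over its input (fold enrichment) and, in percent, a false discovery rate. How deeply the immunoprecipitated libraries were sequenced is unknown.

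The limma package (3.58.1, under R 4.3.3) was fitted to log2(FPKM + 1) with a trend of variance on intensity. P-values were adjusted by Benjamini-Hochberg over all genes that averaged 0.1 FPKM or more in sham or in TON, and the fit was first tested on simulated data. There it called 18 of 50 genes with a true log2 difference of -1 and 16 of 50 with 1. Most changes of that size were thus missed. It called 33 of 50 at -2, 40 of 50 at 2 and 3 of 13131 unchanged genes. The pseudocount understates the change of low genes. Peaks were merged where they shared 1 base or more, and for single values per list an exact two-sided permutation test was used (SciPy 1.17.1). Coordinates are 1-based. All 10 reader symbols matched the RefSeq gene table for GRCr8, which was used for names only.

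Named genes were all 10 readers, the 2 members with the highest mean FPKM in each list of related genes, regions held in all 6 lists, gained or lost, and, for each reader that averaged 1 FPKM or more, the gene with the highest Pearson r among those that averaged 5 FPKM or more. Other regions of the readers and other genes named were chosen after their values were seen. The readers and all lists were chosen with earlier results of these data known. Nothing says that samples of 1 group were prepared separately beyond the pooling of 4 rats each, so p-values measure the spread between these pools. The labels name different library kits for the inputs, and the strand setting of the counting is not stated in these sources. Alternatives covered the pseudocount, the filter, the scaling, the trend, the peak threshold, the overlap and leaving out each library.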

Additional observations from a re-analysis of the deposited data

How the results depend on the processing

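No reader was called under any of 15 alternatives, and the log2 difference of Hnrnpa2b1 kept its sign in all of them, from -0.60 to -0.41, with limma adjusted p from 0.114 to 0.715. The signs of Ythdf1, Ythdf3, Ythdc1, Ythdc2 and Fmr1 also held in all 15. Differences near 0 changed sign. Igf2bp1 (0.0080) went to -0.073 under median centring and to -0.085 under quantile normalization, and ranged from -0.16 to 0.21 with a library left out. With a mean of at least 1 FPKM required it was not tested. Ythdf2 went to -0.025 under median centring, which moves the median of all genes from 0.058 to -0.023. Igf2bp2 ranged from -0.14 to 0.072 with a library left out, positive without sham 1 and without TON 4, and was 0.085 without sham 1 and TON 5 together, an alternative chosen after seeing the data. The number of genes called in all was 7, and 3 without sham 1, 15 without sham 3 and 38 with the scaled fragments in place of FPKM, an alternative added after seeing the data.

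The 1 gained region in the readers was 0 in the top 50% of each list, 0 at a score of at least 100 and 0 with an overlap of at least 100 bases, since the region is shorter than that. With 2 of 3 lists required there were 5, with a list left out 1 to 3, and without sham 1 and TON 5, added after seeing the data, 3. Regions held in all lists were 9, and 5 in the top 50% of each list, and 9 to 11 with a list left out. The difference in reader peaks per list, 4.33, was 3.50 to 5.33 with a list left out, but 2.33 in the top 50% of each list and 2.33 at a score of at least 100. For Ythdc1 the peaks in the top 50% of each list numbered 6, 4 and 6 in sham and 6, 7 and 8 in TON; this and the score limit for Ythdc1 were added after seeing the data. No paired analysis was possible because the replicate numbers of the sham and TON samples are not shared. With 2 to 10 estimated fragments per library, depth limits what can be said of Igf2bp1.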

Other observations

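Some partners of the readers stood apart between the groups without being called, and they are named here because their values had been seen. Among all genes tested, 10.8% stood apart in this way with TON higher and 5.33% with TON lower. Of the 12 tested partners of YTHDF2, 2 were higher and 1 lower without overlap. Of the 7 partners of the IGF2BP proteins, 0 were higher and 2 lower. The 4 tested partners of YTHDC1 and YTHDC2 had 0 higher and 1 lower, as had the 4 of FMRP. Cnot11, a subunit of the CCR4-NOT deadenylase that YTHDF2 recruits, measured 15.2, 11.9 and 14.7 FPKM in sham 1, 2 and 3 and 18.2, 29.4 and 27.7 FPKM in TON 4, 5 and 6. All TON libraries lay above all sham libraries, with TON 4 much nearer to sham than the other TON libraries, and the log2 difference was 0.78 (limma adjusted p 0.348). Upf1, the helicase of nonsense-mediated decay that also binds YTHDF2, measured 24.8, 23.2 and 20.2 FPKM in sham and 25.2, 29.9 and 33.8 FPKM in TON, with TON 4 just above sham 1 (log2 difference 0.36, limma adjusted p 0.456). Ybx1, a cold shock domain protein found with the IGF2BP proteins, measured 145, 124 and 174 FPKM in sham and 114, 118 and 117 FPKM in TON (log2 difference -0.33, limma adjusted p 0.446).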
